A study of Bos grunniens x Bos taurus and Bos grunniens with 12 samples.

Results

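Exosomal small RNA of yak milk collected in June was compared with that of yak milk collected in December, in 3 libraries of each month. An entry of the table (1 miRNA sequence under 1 name) was a member when its norm value, the copy number corrected for the library, reached 10 in at least 3 of these 6 libraries. This gave 413 of 2263 entries. They comprised 206 of 583 entries named after cattle precursors (bta), 135 of 526 named after precursors of other species, and 72 of 1154 predicted candidates (PC). The groups were June yak milk and December yak milk, with June Jeryak and December Jeryak milk, 3 libraries each, used for the spread and for 1 comparison. Jeryak is the hybrid of yak and Jersey cattle, which the labels call cattle-yak. All animals were lactating, 4 to 5 years old, and were kept in Hezuo, Gansu, and the milk was not treated. Exosomes were isolated by centrifugation on an iodixanol gradient. Libraries were made from milk of 3 yaks and 3 Jeryaks. The labels do not say which animal gave which library, or whether a replicate number marks 1 animal in both months. The p-values therefore measure the spread between libraries, and month cannot be told apart from any difference in library making or sequencing between the months.

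Exosomes are small vesicles released by cells, and those of milk come mostly from the secretory epithelium of the mammary gland, with a part from the leukocytes that milk carries. They hold miRNAs, RNAs of about the length of a short primer that are cut from hairpin precursors and loaded into Argonaute proteins. A miRNA pairs with target messenger RNAs mainly through its seed, bases 2 to 8 from the 5′ end, and lowers their translation or stability. In a name of the table, L and R with a number give the bases gained or lost at the 5′ and 3′ ends relative to the miRBase sequence. A code such as 1ss gives a substituted base, and p5 or p3 marks an arm of a precursor for which miRBase lists no mature miRNA.

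The sequences that carry the main results are written 5′ to 3′ as in the deposited table, with the seed in capitals. The miR-183 cluster, which was higher in June yak milk, has members with seeds that differ by few bases:
bta-miR-183_R-1: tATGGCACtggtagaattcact
bta-miR-96_R-2: tTTGGCACtagcacatttttg
bta-miR-182_R-2: tTTGGCAAtggtagaactcaca
Of the 9 tested let-7 and miR-98 entries with the seed shown here, these 3 were lower in June yak milk:
bta-let-7g: tGAGGTAGtagtttgtacagtt
bta-let-7b: tGAGGTAGtaggttgtgtggtt
bta-miR-98: tGAGGTAGtaagttgtattgtt
Lower as well were miR-146b and a set of cattle entries made almost wholly of G and C:
bta-miR-146b: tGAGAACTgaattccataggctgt
bta-miR-11972_R-2_1ss4GC: gGGCCGGGagcggccgggg
bta-miR-12030_L-1_1ss10CG: cCGGGGCCgggagcggcc
bta-miR-12034_L-1_1ss19TG: cCCGGGGAgcccggcggg
bta-miR-12023_1ss17GA: cTCCTCCCgcccccccac
bta-miR-11985_1ss4AC: cCCCCCGCtctcctcccgcc
Among entries of other species, those matched to the mouse precursors of miR-5106 and miR-5124a are shown because they were among the clearest in June yak milk and differ mostly in where they start and end:
mmu-miR-5106_R-4_1ss1AG: gGGTCTGTagctcagttgg
mmu-miR-5106_R-5_1ss1AG: gGGTCTGTagctcagttg
mmu-miR-5124a_L-1R-1_1ss5CA: gTCAAGTGactaagagca
mmu-miR-5124a_L-1_1ss5CA: gTCAAGTGactaagagcat
mmu-mir-5124a-p5_1ss6CA: gGGTCAAGtgactaagagc
Entries that differ from a cattle miRNA by their last base are set below the cattle entry, here with that 3′ end in capitals in place of the seed, because the 2 behaved differently between the months:
bta-miR-22-3p_R+1: aagctgccagttgaagaactgT
mdo-miR-22-3p: aagctgccagttgaagaactgC
bta-miR-141_R-1: taacactgtctggtaaagatg
mdo-miR-141-3p: taacactgtctggtaaagatgC
bta-miR-429_R-1: taatactgtctggtaatgccG
mdo-miR-429_R+1: taatactgtctggtaatgccA
The predicted candidates are represented by the 2 with the smallest p in each direction, again with bases 2 to 8 in capitals:
PC-5p-1462_5078: cAGGGCTCtgctaagtcg
PC-5p-1725_4409: gGGTAGTCgatgggaacc
PC-3p-9644_763: tACCTGGTtgatcctgca
PC-3p-67666_76: cTGGACGCtagccgggcccg

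The summed norm value of a library was 625847 to 816871 in June and 588715 to 613511 in December yak milk. The step between low values gave the worth of 1 copy as a norm value of 1.02 to 3.30 in June and 0.730 to 1.86 in December, and the copies in the table as 247528 to 614066 in June and 315876 to 840850 in December. An entry listed at 0 can thus hold up to 3 copies by counting error, a norm value of up to 9.90 in June and 5.59 in December. June libraries were less alike than December libraries, with correlations across entries of 0.845 to 0.874 in June and 0.949 to 0.956 in December. The median SD of an entry between libraries, on the log2 scale, was 0.852 in June and 0.421 in December.

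In June yak milk 113 entries were higher and 73 were lower than in December yak milk, which is 27.4% and 17.7% of the 413 tested and 45.0% together (limma on log2(norm value + 1), passed at an adjusted p under 0.05). The 2 directions were filled by different classes. Of the bta entries 19 were higher and 37 lower, so that 27.2% passed (9.22% as higher), and their median log2 fold change was -0.38. Among entries of other species 31 were higher and 30 lower (45.2%, of which 22.2% as lower, median 0.04). Of the predicted candidates 63 were higher and 6 lower (87.5% and 8.33%, together 95.8%, median 6.89). The rule for members lets an entry in through 1 month alone, and such an entry differs through how it was chosen. An adjusted p given below for such an entry describes its values and is not support for its direction. In June alone the minimum was reached by 80 entries, of which 62 were predicted candidates, and in December alone by 28, of which 4 were. Among the entries that reached it in both months, 34 were higher and 45 lower. The lowest third-highest value among members was a norm value of 10.2, and the highest among entries left out was 9.90. Some entries repeat each other, since 20 sets hold the same values in all 12 libraries under more than 1 name, which leaves 391 distinct profiles with 112 higher and 70 lower.

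**Figure D1:**
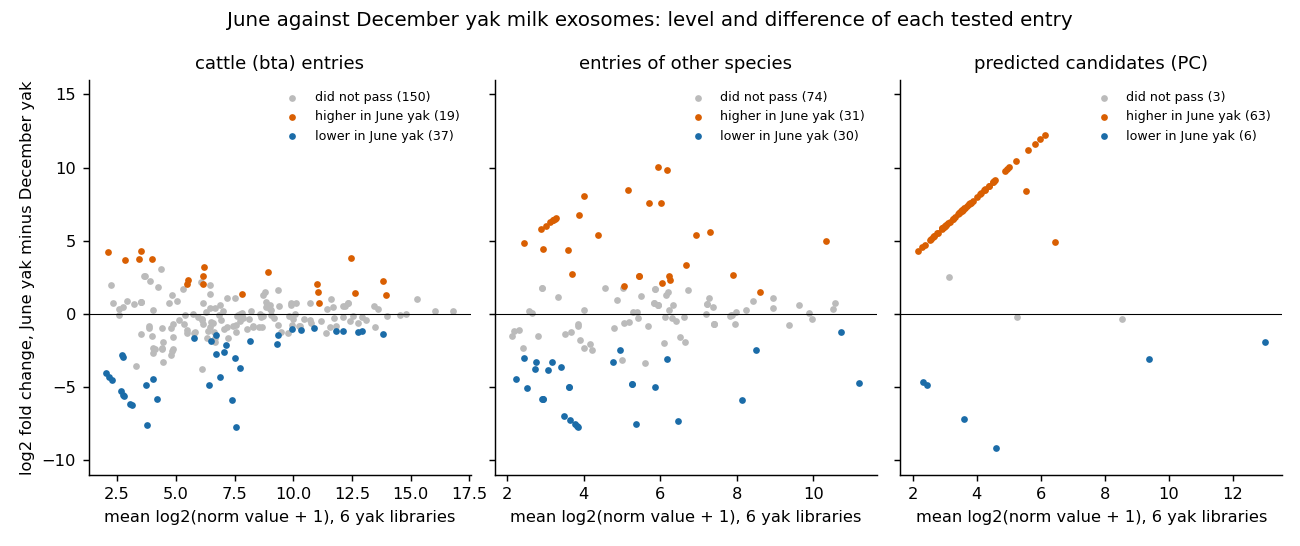
Each point is a tested entry, with its mean log2(norm value + 1) over the 6 yak libraries on the x axis and the log2 fold change of June over December yak milk on the y axis. Of the cattle entries 19 were higher and 37 lower in June, and of the predicted candidates 63 were higher. The straight line of predicted candidates is made by the 61 that were listed at 0 in all 3 December libraries.

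The cattle entries higher in June yak milk included the whole miR-183 cluster, 3 miRNAs (miR-96 and miR-182 are the others) that are transcribed together and known for their part in sensory organs. bta-miR-182_R-2 had norm values of 218, 131 and 174 in the June yak libraries, against 31.4, 29.4 and 24.2 in the December yak libraries (log2 fold change 2.56, standard error 0.46, adjusted p = 4.4e-04). The June mean was 6.16 times the December mean. bta-miR-96_R-2 had 188, 198 and 298 in June and 21.9, 37.6 and 14.9 in December yak milk (log2 fold change 3.21, standard error 0.6, adjusted p = 5.7e-04). Every June library stood above every December library for both. bta-miR-183_R-1 was the least abundant of the 3, with 66, 39.7 and 48.3 in June and 0, 16.3 and 0 in December yak milk (log2 fold change 4.31, standard error 1.02, adjusted p = 0.0038). The 3 summed to 369 to 521 in June and 39.1 to 83.4 in December libraries, without overlap.

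bta-miR-320a, a miRNA that in mouse is made without the enzyme Drosha, was the most abundant cattle entry to pass as higher. It had norm values of 21081, 19848 and 70879 in June and 7671, 5817 and 6676 in December yak milk (log2 fold change 2.21, standard error 0.57, adjusted p = 0.0063). June yak 3 stood far above the other June libraries, which were themselves above all of December. bta-miR-186 had 21358, 20869 and 32502 in June and 8762, 9659 and 12092 in December yak milk (log2 fold change 1.27, standard error 0.27, adjusted p = 0.0016), a ratio of means of 2.45. bta-miR-22-3p_R+1 had 7986, 7407 and 19427 in June and 6141, 3203 and 2913 in December (log2 fold change 1.44, standard error 0.42, adjusted p = 0.013), and its call rested on several libraries. Without June yak 3, December yak 2 or December yak 3 its adjusted p was 0.055, 0.051 and 0.061.

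Less abundant cattle miRNAs were higher as well. bta-miR-128, known best from brain, had norm values of 129, 177 and 127 in June and 32.1, 47.4 and 27 in December yak milk (log2 fold change 2.01, standard error 0.52, adjusted p = 0.0063). bta-miR-335_R-2, which lies within the imprinted gene MEST, had 82.5, 98.9 and 126 in June and 13.1, 21.2 and 28 in December (log2 fold change 2.29, standard error 0.63, adjusted p = 0.0091). The groups were apart for both. bta-miR-6524_R+1 was listed at 0 in all 3 December yak libraries and had 16.5, 13.2 and 26.8 in June (log2 fold change 4.25, standard error 0.58, adjusted p = 5.0e-05). Where a group is at 0, the fitted fold change depends on the 1 added to each value and sets no bound. The cattle entries bta-miR-2904_L-1R+3 and bta-mir-2887-2-p5, of miRNAs for which no role is given here, were higher at high levels. The first had 23078, 11351 and 36648 in June and 679, 3377 and 1567 in December yak milk (log2 fold change 3.79, standard error 0.66, adjusted p = 3.4e-04). The second had 2026, 1156 and 1004 in June and 89.7, 289 and 222 in December (log2 fold change 2.88, standard error 0.58, adjusted p = 0.0011). bta-miR-11971_1ss15TC was higher too, with 69.3, 32.6 and 84.5 in June and 10.6, 5.72 and 0 in December (log2 fold change 3.78, standard error 0.95, adjusted p = 0.0051). It shares a run of at least 15 bases with the far more abundant bta-miR-423-5p, so reads of the one may be counted under the other. bta-miR-423-5p itself missed the threshold, with 4059, 3279.7 and 6605 in June and 1819, 2751 and 2169 in December (log2 fold change 1.01, standard error 0.42, adjusted p = 0.069).

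**Figure D2:**
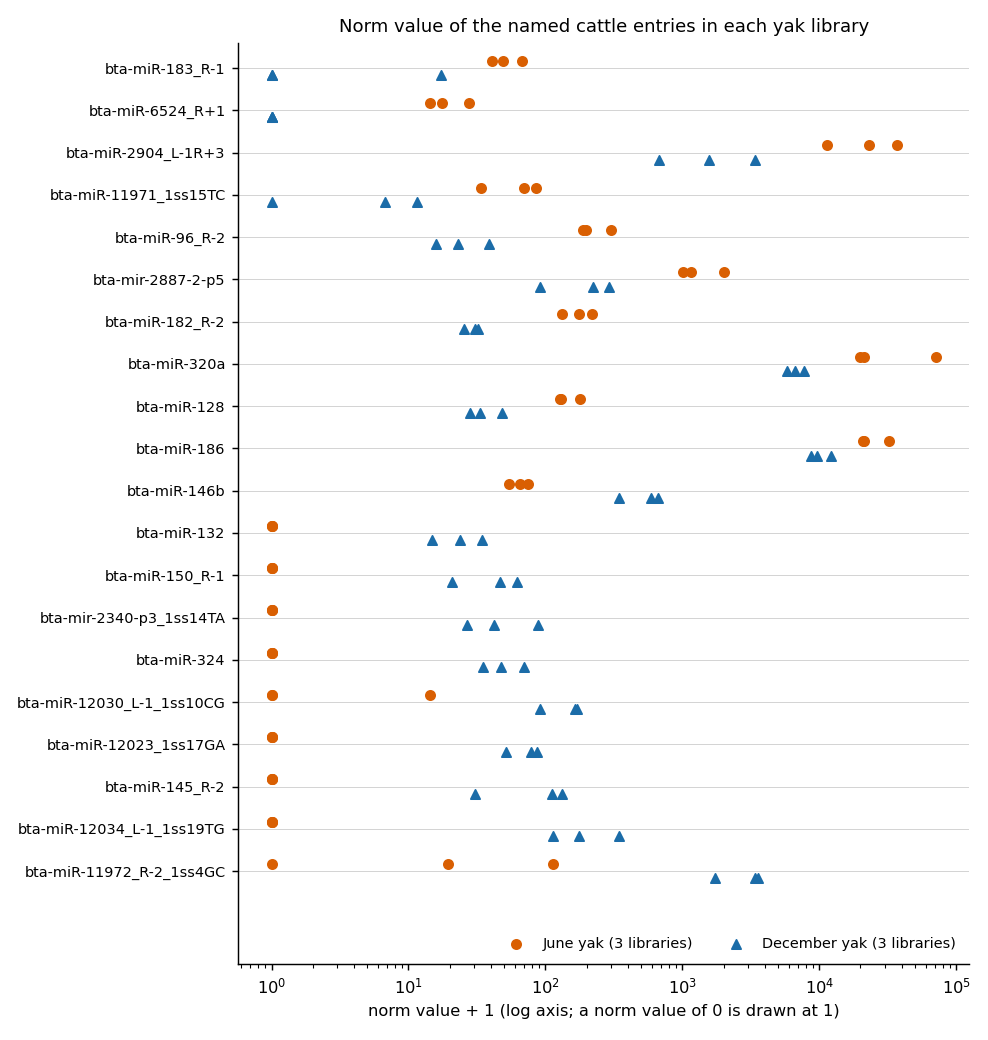
Norm value plus 1 of the 20 cattle entries named by the smallest p in each direction, on a log axis, with the 3 June yak libraries as circles above the 3 December yak libraries as triangles. From bta-miR-183_R-1 at the top to bta-miR-186 the June points lie to the right, and from bta-miR-146b downwards they lie to the left, many of them at a norm value of 0.

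Of the 37 cattle entries lower in June yak milk, 9 were listed at 0 in all 3 June libraries. bta-miR-146b, which is induced by inflammatory signals and dampens them, was present in every library of both months. It had norm values of 52.8, 64.2 and 73.8 in June and 343, 592 and 658 in December yak milk (log2 fold change -3.0, standard error 0.51, adjusted p = 2.8e-04), so that the December mean was 8.35 times the June mean. bta-miR-146a_R-2, its close relative with the same seed, had 62.7, 34.7 and 79.2 in June and 62.7, 63.7 and 65.2 in December (log2 fold change -0.2, standard error 1.5, adjusted p = 0.92) and overlapped between the months.

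Several less abundant miRNAs were listed at 0 in all June yak libraries. They were members through December alone, so their direction was set by the rule for members and their p-values do not support it. bta-miR-150_R-1, a miRNA of mature lymphocytes, had 45.2, 19.6 and 61.5 in December yak milk (adjusted p = 9.0e-04). bta-miR-145_R-2, of smooth muscle, had 110.2, 29.4 and 130.5 (adjusted p = 4.8e-04). bta-miR-132, known from neurons, had 13.9, 22.9 and 33.5 (adjusted p = 9.0e-04), and bta-miR-324 had 34.3, 68.6 and 46.6 (adjusted p = 2.1e-04). All of these December values were above the limit of 3 copies, which was a norm value of 2.19 to 5.59 in the December libraries and 3.06 to 9.90 in the June libraries.

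A further pair was present in every library of both months. bta-miR-652_R+1 had norm values of 452, 383 and 343 in June and 995, 1102 and 1135 in December yak milk (log2 fold change -1.46, standard error 0.34, adjusted p = 0.0036) and passed in every limma alternative. bta-miR-210_L-1, a miRNA induced by low oxygen, had 23.1, 86.6 and 139.5 in June and 286, 374 and 231 in December (log2 fold change -2.13, standard error 0.65, adjusted p = 0.017). Its call was lost without June yak 1 or December yak 2, with an adjusted p of up to 0.075. Both were named after their values had been seen.

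Lists of miRNAs were described by their counts beside the 27.2% of bta entries that passed and the bta median log2 fold change of -0.38. Of the 11 tested entries of the let-7 and miR-98 family, conserved miRNAs that rise as cells differentiate, 3 were lower and none higher, and their median was -0.85. bta-let-7g had norm values of 6219, 6388 and 3559.8 in June and 12629, 11727 and 10207 in December yak milk (log2 fold change -1.14, standard error 0.28, adjusted p = 0.0044). bta-let-7b had 12709, 10911 and 5159.9 in June and 26626, 20722 and 22198 in December (log2 fold change -1.37, standard error 0.42, adjusted p = 0.019), and bta-miR-98 had 238, 241 and 59 in June and 491, 606 and 569 in December (log2 fold change -1.87, standard error 0.55, adjusted p = 0.013). June yak 3 was the lowest library for all of them. Without it 2 members were lower, and let-7b missed the threshold (adjusted p = 0.077), as it did without December yak 1 (0.062). bta-let-7a-5p, with 5678, 4938 and 725 in June and 6086, 3321 and 5889 in December, overlapped between the months (log2 fold change -0.85, standard error 0.8, adjusted p = 0.41) and was named after its values were seen.

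The same library mattered for miR-16 and its relatives (miR-15 and miR-195), which restrain the cell cycle, with 2 of 4 tested entries lower and a median of -1.51. bta-miR-16a had norm values of 563, 562 and 91.2 in June and 1285, 1517 and 1159 in December yak milk (log2 fold change -2.09, standard error 0.69, adjusted p = 0.025), and bta-miR-16b_R+1 had 80.9, 86.6 and 8.05 in June and 261, 335 and 224 in December (log2 fold change -2.75, standard error 0.9, adjusted p = 0.024). Neither passed without June yak 3, without December yak 1 or without December yak 2 (adjusted p up to 0.096).

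Members of 6 further lists passed as lower by margins that 1 library could remove. Of the miR-30 family 2 of 6 were lower, bta-miR-30b-5p (log2 fold change -1.18 at an adjusted p of 0.034) and bta-miR-30c_R+1 (-1.05, 0.015), and neither passed without June yak 3, December yak 2 or December yak 3 (adjusted p up to 0.13). The miR-17 to miR-92 clusters, which drive proliferation, had 2 of 15 lower, bta-miR-92a (-1.15, 0.026) and bta-miR-92b (-1.42, 0.037), and neither passed without December yak 2 or December yak 3 (adjusted p up to 0.14). bta-miR-26b had 5810.4, 5776 and 2615 in June and 10138, 10752 and 11149 in December yak milk (log2 fold change -1.26, standard error 0.41, adjusted p = 0.025) and was lost without June yak 3 or without any 1 December library, with an adjusted p of up to 0.098. Its partner bta-miR-26a had 10249, 9400.5 and 6381 in June and 15008, 13822 and 18772 in December (log2 fold change -0.89, standard error 0.35, adjusted p = 0.057). Of the miR-23, miR-27 and miR-24 clusters 1 of 6 was lower, bta-miR-23b-3p_R-5 (-1.11, 0.015), which missed without June yak 1, June yak 3 or December yak 3 (adjusted p up to 0.064). Of miR-193 and miR-365 2 of 4 were lower, bta-miR-193a-3p (-2.63, 0.040) and bta-miR-193b_R-2 (-2.81, 0.035). bta-miR-193a-3p missed the threshold whichever yak library was left out, and bta-miR-193b_R-2 without June yak 1, June yak 3, December yak 2 or December yak 3 (adjusted p up to 0.14). In the miR-10, miR-99, miR-100 and miR-125 list 1 of 7 was lower, bta-miR-10a_R-1 (-2.96, 0.048), which passed without June yak 3 and was lost without any other yak library (adjusted p up to 0.17).

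**Figure D3:**
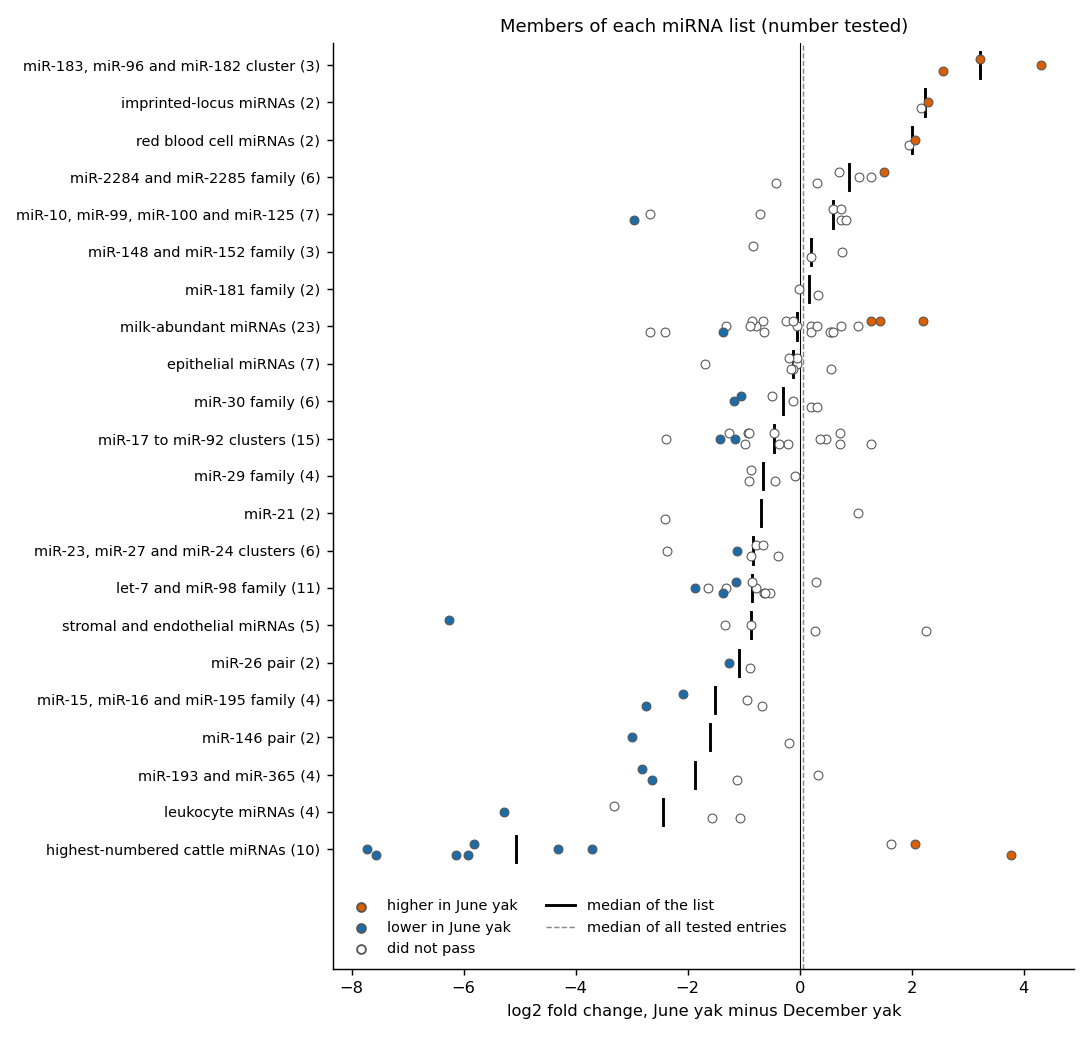
Log2 fold change of June over December yak milk (x axis) for each tested member of the lists with at least 2 tested members (number in parentheses), with filled points for members that passed and a black bar at the median of the list. All 3 members of the miR-183 cluster lie to the right. At the far left lie 7 of the 10 entries of the highest-numbered cattle miRNAs, most of which overlap another of the 7 in sequence.

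The cells that could add RNA to milk were described through their marker miRNAs. Epithelial miRNAs were abundant in every library and summed to 62287 to 123326 in June and 78007 to 103260 in December yak milk, with none of 7 passed, although 1 was lower without December yak 2 and 1 with libraries scaled to equal totals. bta-miR-200a had norm values of 39273, 26681 and 20903 in June and 29203, 29333 and 27854 in December (log2 fold change -0.04, standard error 0.27, adjusted p = 0.91), and bta-miR-375_L-1 had 6432, 6819 and 9166 in June and 10589, 7819 and 7244 in December (log2 fold change -0.19, standard error 0.3, adjusted p = 0.61). The leukocyte list summed to 110.0 to 314 in June and 446 to 663 in December libraries, without overlap. Most of each sum was bta-miR-342_R-2, which did not pass (log2 fold change -1.06, adjusted p = 0.11). With 1 of 4 tested members passed, the list was near the 27.2% of all bta entries. Of its 4 tested members miR-150 was lower, and bta-miR-155, of activated leukocytes, missed the threshold with 19.8, 15.3 and 0 in June and 81, 47.4 and 83.9 in December (log2 fold change -3.32, standard error 1.45, adjusted p = 0.080). bta-miR-142-5p_L+2R-1 had 36.3, 8.15 and 13.4 in June and 53.3, 32.7 and 69 in December (log2 fold change -1.57, standard error 1.38, adjusted p = 0.37) and was named after its values were seen. The part of leukocyte RNA in the values of miR-146b was not tested.

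The red blood cell list, at low levels, had 1 of 2 tested members higher, where 9.22% of all bta entries were. With 2 tested members this share cannot be read as a result about the list. It summed to 104 to 733 in June and 39.2 to 173 in December libraries, with overlap. bta-miR-486 had 149, 64.2 and 75.1 in June and 20.4, 9.81 and 42.9 in December yak milk (log2 fold change 2.06, standard error 0.7, adjusted p = 0.028) and was lost without June yak 1, December yak 1 or December yak 2 (adjusted p up to 0.12). bta-miR-451_R-2, the most abundant miRNA of red cells, had 188, 39.7 and 657 in June and 21.2, 29.4 and 130.5 in December (log2 fold change 1.95, standard error 1.43, adjusted p = 0.28). The stromal and endothelial list summed to 273 to 1059 in June and 744 to 2394 in December libraries. Of its 5 tested members miR-145 was lower, and bta-miR-143_1ss22GT of the same transcript had 997, 242 and 706 in June and 1829.9, 683 and 2203 in December (log2 fold change -1.34, standard error 0.73, adjusted p = 0.15). The list did not move as one, since 3 of the 5 had a negative and 2 a positive log2 fold change. One of the positive ones was bta-miR-126-3p_L+1, which did not pass (2.26, adjusted p = 0.20). The single tested member of the muscle, liver and neural list was bta-miR-122_R+1 of liver, with 16.5, 8.15 and 174 in June and 7.3, 14.7 and 0 in December (log2 fold change 2.58, standard error 1.69, adjusted p = 0.23).

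The most abundant miRNAs of yak milk exosomes mostly did not pass. bta-miR-30a-5p led in every yak library, with norm values of 127733, 117327 and 126728 in June and 117572, 100519 and 105742 in December (log2 fold change 0.2, standard error 0.32, adjusted p = 0.61). bta-miR-148a, one of the main miRNAs of mammalian milk, had 82407, 64287 and 70441 in June and 58244, 84682 and 50203 in December (log2 fold change 0.2, standard error 0.28, adjusted p = 0.58). The months overlapped for both, in miR-30a through 1 June library just under the highest December library. bta-miR-21-5p_R-2, a miRNA abundant in many tissues, had 81998, 53527 and 40589.9 in June and 43524, 19411 and 24359 in December (log2 fold change 1.04, standard error 0.54, adjusted p = 0.14), and bta-miR-200b_R+1 had 34018, 25924 and 14491 in June and 30281, 17918 and 25977 in December (log2 fold change -0.05, standard error 0.37, adjusted p = 0.92). Among 23 tested milk-abundant entries 3 were higher (miR-186, miR-320a and miR-22-3p) and let-7b was lower, with a median of -0.04.

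The miR-2284 and miR-2285 family, a large family in cattle, had 1 of 6 tested entries higher and a median of 0.88. That entry, bta-miR-2285t, had norm values of 1957, 2915 and 7899.6 in June and 1310.4, 1152 and 1306 in December yak milk (log2 fold change 1.5, standard error 0.48, adjusted p = 0.022). It missed the threshold without June yak 3 or any 1 December library, and also when libraries were scaled to equal totals (adjusted p up to 0.089). Of the miRNAs taken up in the study's discussion, 10 were tested, of which 4 were lower and 1 higher, with a median of -1.06. The lower ones were miR-146b, let-7b, miR-26b and miR-16a, and without June yak 3 or without December yak 1 just 1 of the 10 was lower. The higher one, bta-miR-2478_L-2, had 271, 399 and 437 in June and 126, 86.6 and 268 in December (log2 fold change 1.33, standard error 0.44, adjusted p = 0.025) and missed the threshold when June yak 2, June yak 3, December yak 1 or December yak 2 was left out. The list was chosen on these samples and is not independent evidence of direction. No member passed in the lists of miR-21 (2 tested), miR-29 (4), miR-181 (2) and miR-148 with miR-152 (3), although 1 member of the miR-21 list was lower without June yak 3, 1 of miR-29 with libraries scaled to equal totals or equal bta totals, and 1 of miR-148 with miR-152 at equal library totals. In the imprinted-locus list miR-335 was the 1 of 2 to pass, and both were higher without December yak 2.

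The most marked group of lower cattle entries had the highest miRBase numbers, 11971 to 12044, and the sequences printed above, rich in G and C. Of 10 tested entries of this list 7 were lower and 2 higher, with a median log2 fold change of -5.06, and with 1 yak library left out 6 or 7 were lower and 1 or 2 higher. The list summed to 9343, 2426 and 8319 in June and 4076, 11123 and 8803 in December yak milk. These sums overlapped, so the list as a whole did not follow its 7 lower entries. In Jeryak milk 2 of the 10 were higher and 2 lower in June, with a median of -0.58. The 7 are not independent, since most of them share a run of at least 15 bases with another of the 7. These are the 2 bta-miR-12023 forms, the 2 bta-miR-11985 forms, and bta-miR-11972_R-2_1ss4GC with bta-miR-12030_L-1_1ss10CG. bta-miR-11972_R-2_1ss4GC had norm values of 0, 18.3 and 113 in June and 1722, 3591 and 3405 in December yak milk (log2 fold change -7.73, standard error 1.55, adjusted p = 0.0011). bta-miR-12030_L-1_1ss10CG, which overlaps it in sequence, had 0, 0 and 13.4 in June and 90.5, 168 and 164 in December (log2 fold change -5.81, standard error 1.2, adjusted p = 0.0014). Both were at or near 0 in June and high in each December library. bta-miR-12034_L-1_1ss19TG was listed at 0 in June and had 176, 113 and 341 in December (adjusted p = 5.6e-05), and bta-miR-12023_1ss17GA likewise, with 50.3, 76.8 and 85.7 (adjusted p = 1.1e-05). bta-miR-11985_1ss4AC had 0, 69.3 and 148 in June and 503, 2014 and 2272 in December (log2 fold change -5.92, standard error 1.41, adjusted p = 0.0038). Among all tested bta sequences with at least 70% G and C, which include entries of this list, 10 of 17 were lower and 2 higher, with a median of -4.31. High GC was found in 26 sequences of other species, of which 10 were higher and 6 lower, where 31 and 30 of all 135 entries of that class were. It was found in 17 predicted candidates, of which 16 were higher, close to the 87.5% of all predicted candidates.

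Entries of other species split by the species they were named after. Of 38 entries named after mouse (mmu), 22 were higher and 3 lower in June yak milk, and 4 of 6 entries named after opossum (mdo) were lower and none higher. Several of these entries were 1 sequence with shifted ends. The mouse miR-5124a group had all of its 4 entries higher. mmu-miR-5124a_L-1R-1_1ss5CA had norm values of 4317, 1199.6 and 1595 in June and 0, 5.72 and 0 in December yak milk (log2 fold change 10.07, standard error 0.85, adjusted p = 9.5e-07). mmu-miR-5106_R-4_1ss1AG had 3034, 1389 and 2440.4 in June and 1.82, 4.09 and 0 in December (log2 fold change 9.81, standard error 0.8, adjusted p = 8.4e-07), and its form with 1 base fewer had 104, 57.1 and 73.8 in June and was listed at 0 in December (adjusted p = 4.4e-06). These sequences, printed above, were all but absent in December.

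mmu-mir-6240-p5 was the most abundant of the higher entries of other species. It had norm values of 12653, 3872 and 8195 in June and 198, 293 and 205 in December yak milk (log2 fold change 5.01, standard error 0.48, adjusted p = 2.8e-06), a ratio of means of 35.5. Entries that match the mouse precursor of miR-6236 with 1 substitution formed a group of 5 sequences that share a run of bases, 1 of them a predicted candidate, and all 5 were higher. Of the 12 tested entries that carry the name of that precursor, 6 were higher and 6 did not pass.

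On the lower side, the 3 entries matched to the gorilla precursor ggo-mir-4488 with 18 bases each were all lower. ggo-mir-4488-p5_1ss18TC had 0, 5.1 and 53.7 in June and 550.1, 1488 and 1738 in December yak milk (log2 fold change -7.34, standard error 1.38, adjusted p = 6.3e-04), and ggo-mir-4488-p5_1ss18TA was listed at 0 in June and had 92.7, 178 and 224 in December (adjusted p = 8.9e-07). eca-mir-8969-p5_1ss4GT, named after horse, was listed at 0 in June and had 85, 258 and 410.0 in December (adjusted p = 6.3e-06). ssc-miR-1285_L-1R+1, named after pig, was the most abundant entry of this class and was chosen after its values were seen. It had 465, 481 and 424 in June and 8241, 15337 and 14090.0 in December yak milk (log2 fold change -4.73, standard error 0.65, adjusted p = 5.0e-05), and the December mean was 27.5 times the June mean.

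Some entries of other species differ from a more abundant cattle miRNA in their last bases alone, as printed above, and these variants were scarce in June where the cattle entry was not. The comparison was chosen after the values were seen and is given without a test. mdo-miR-141-3p, of a miRNA that keeps cells epithelial, carries 1 base more at its 3′ end than bta-miR-141_R-1. The cattle entry had norm values of 16595, 14055 and 10121 in June and 10673, 9132 and 7472 in December yak milk (log2 fold change 0.57, standard error 0.37, adjusted p = 0.23). The longer entry was listed at 0 in June and had 96.3, 212 and 98.8 in December (adjusted p = 3.6e-06). Of the sum of both it made up 0.894, 2.27 and 1.3% in December, and 3 copies would have been 0.0596, 0.0217 and 0.0795% in the June libraries.

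mdo-miR-22-3p, which differs from bta-miR-22-3p_R+1 in its last base, was lower where the cattle entry was higher. It had norm values of 0, 16.3 and 64.4 in June and 462, 359.6 and 207 in December yak milk (log2 fold change -4.97, standard error 1.16, adjusted p = 0.0035), and its share of the sum was 0, 0.22 and 0.33% in June and 7.0, 10.1 and 6.63% in December. Among 50 groups of tested sequences that share a run of at least 15 bases, it was the only group with entries passed in both directions, and 22 others with 2 or more passed entries had 1 direction. mdo-miR-429_R+1 had a share of 0, 1.94 and 0% in June and 9.05, 3.0 and 9.52% in December in its sum with bta-miR-429_R-1. Here 3 copies would have been 2.26, 0.591 and 2.70% in the June libraries, so the 0 values in June lie close to the share of December yak 2. The variant hsa-miR-151b_R+3_1, whose values are also listed under a second name, had 0, 0.478 and 0.639% in June and 5.81, 6.47 and 8.14% in December in its sum with bta-miR-151-5p. hsa-miR-320b_R-1 had 0.467, 0.551 and 0.407% in June and 3.31, 1.39 and 2.08% in December in its sum with bta-miR-320a.

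The same share was taken over all 21 pairs of a tested entry, cattle entries included, and a more abundant cattle miRNA with the same 5′ part. The 2 of a pair differ in at most their last 3 bases. Some pairs are 2 related cattle miRNAs, such as bta-miR-107_R-1 with bta-miR-103 and bta-miR-16b_R+1 with bta-miR-16a. The share of the less abundant entry was higher in all December than in all June yak libraries in 9, these 2 pairs among them. It was higher in all June libraries in 1, and the months overlapped in 11. No overlap between the months is common here, since it was found for 59.1% of all tested entries, and for 48.5% of bta and 55.6% of entries of other species. In Jeryak milk, whose libraries are separate from those of yak, 8 of the 9 had the same order without overlap. Over all 21 pairs the share was higher in all December than in all June Jeryak libraries in 13, among them 4 that overlapped in yak milk, and the months overlapped in 8. The Jeryak libraries held about 294073 to 354008 copies in June and 2.28e+06 to 6.17e+06 in December. There 3 copies were a norm value of 5.54 to 7.40 in June and 0.381 to 0.808 in December. Scarce entries count among the 13, such as bta-miR-20a_R-2 with a Jeryak share of 0, 0 and 0% in June and 0.41, 0.34 and 0.30% in December. The part of depth in this order was not tested. For mdo-miR-22-3p the Jeryak shares were 0.15, 0.26 and 0.335% in June and 5.48, 5.55 and 8.69% in December. The 1 pair with the June share higher in yak milk had the opposite order in Jeryak milk. In this pair bta-miR-92a_R+2, with 2 bases more than bta-miR-92a, had 0.638, 0.608 and 0.66% in June and 0.598, 0.565 and 0.573% in December yak milk, and 0.647, 0.674 and 0.184% in June and 1.07, 1.57 and 0.828% in December Jeryak milk.

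**Figure D4:**
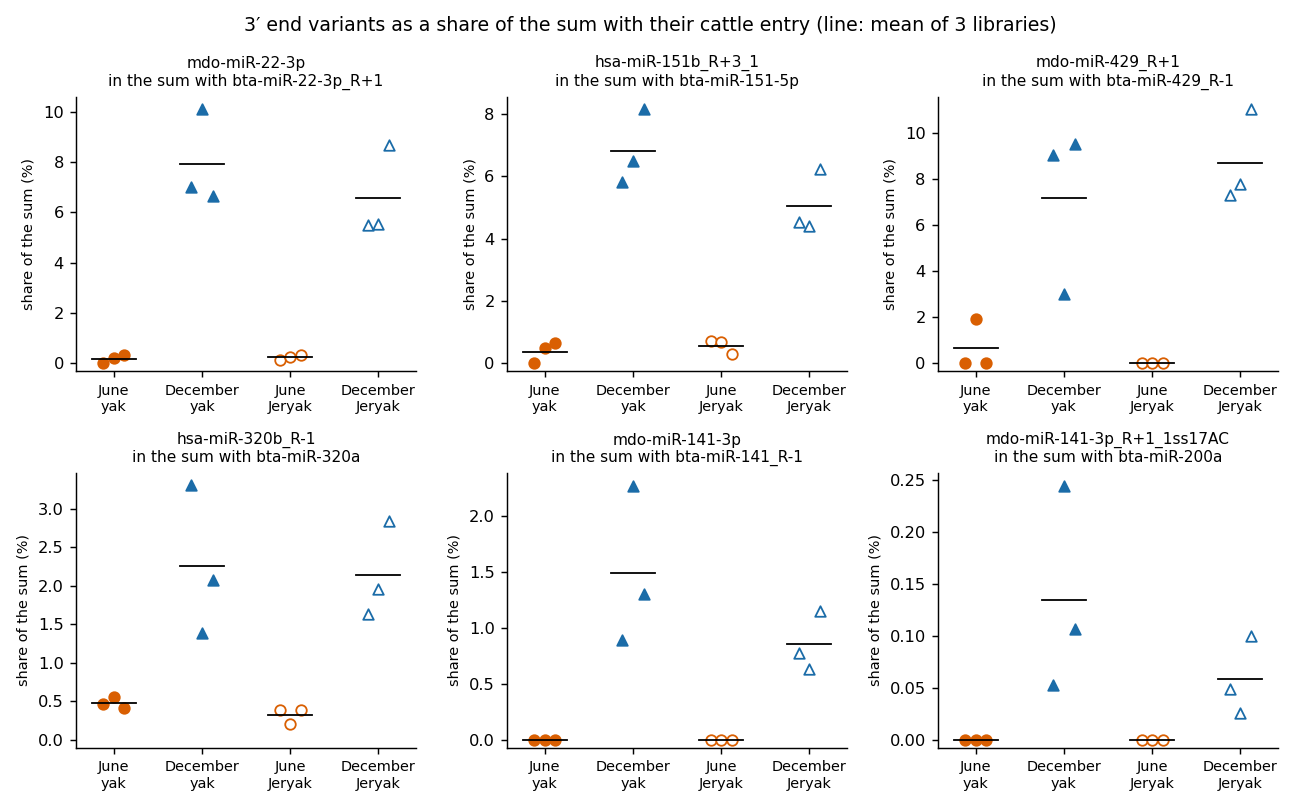
Share of a 3′ end variant in its sum with the cattle entry it resembles (y axis, percent, with its own range in each panel) in each library of June and December yak and Jeryak milk, with a line at the mean of 3 libraries. In all 6 panels the December libraries lie above the June libraries, and mdo-miR-141-3p was listed at 0 in every June library.

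Predicted candidates that were higher in June yak milk were mostly listed at 0 in December, which held for 61 of the 63. The minimum was reached in June alone by 62 of the 72 tested candidates. For these the direction was set by the rule for members, and the p-values below do not support it. PC-5p-1462_5078 had norm values of 3406, 3191 and 2931 in June (adjusted p = 2.2e-08), PC-5p-1725_4409 had 4386, 1839 and 7559 (adjusted p = 2.7e-08), and PC-3p-803_8871 had 3257, 530.0 and 1511 (adjusted p = 1.3e-07). All 3 were at 0 in each December yak library. PC-5p-384_17873 varied more, with 10709, 14613 and 738 (adjusted p = 1.5e-05), and was named after its values were seen. The number of predicted candidates above 0, over the whole table, was 203, 153 and 183 in June and 48, 59 and 43 in December libraries. An exact permutation test of this difference gave a two-sided p of 0.10, the smallest that 3 against 3 libraries allow. Of the candidates above 0, 1.96 to 4.92% were listed under 5 copies in June and 0 to 20.9% in December libraries, where 5 copies were a norm value of 5.1 to 16.5 in June and 3.65 to 9.32 in December. The part of depth in these counts was not tested.

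Of the 6 candidates lower in June, 4 were listed at 0 in all June yak libraries and were thus members through December alone. PC-3p-9644_763 had 353, 892 and 609 in December (adjusted p = 1.1e-05), PC-5p-14546_484 had 158, 132 and 139.8 (adjusted p = 7.3e-05), and PC-3p-67666_76 had 24.8, 22.9 and 41 (adjusted p = 1.2e-05). PC-5p-681_10485 was present in both months, with 251, 164 and 279 in June and 2389.5, 2203 and 1443 in December (log2 fold change -3.12, standard error 0.46, adjusted p = 9.0e-05). PC-3p-239_27215, the most abundant candidate and named after its values were seen, had 2683, 3722 and 7653 in June and 5952, 26554 and 26663 in December (log2 fold change -1.93, standard error 0.66, adjusted p = 0.031). Its months overlapped through December yak 1, and it missed the threshold without June yak 1, June yak 2, December yak 2 or December yak 3 (adjusted p up to 0.12).

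The classes also differed in length. Of 54 predicted candidates of 18 or 19 nt, 52 were higher in June yak milk and 1 was lower, and of the 18 that were longer 11 were higher and 5 lower. Of all 72 predicted candidates 87.5% were higher. The minimum was reached in June alone by 62 of them, so this direction was set largely by the rule for members. Of 48 entries of other species of 18 or 19 nt 17 were higher and 12 lower, and of 61 of 21 to 23 nt 8 were higher and 15 lower. Among bta entries of 18 or 19 nt 1 of 16 was higher and 9 were lower, while among the 160 of 21 to 23 nt, the length of a mature miRNA, 15 were higher and 23 lower. Weighted by norm value, sequences of 18 or 19 nt took 8.47 ± 2.02% of a June and 3.80 ± 1.18% of a December library (SD, n = 3, exact permutation test, two-sided p = 0.10, the smallest possible). Sequences of 22 nt took 44.6 ± 1.56% in June and 45.0 ± 2.22% in December (exact p = 0.90). Cattle entries held 87.6 ± 3.21% of the summed norm values in June and 89.7 ± 3.28% in December (exact p = 0.60), entries of other species 5.55 ± 1.24% in June and 6.34 ± 1.22% in December (exact p = 0.50), and predicted candidates 6.85 ± 2.05% in June and 3.95 ± 2.06% in December (exact p = 0.10). The predicted share of December yak 1 was 1.58%, against 5.23 and 5.05% in the other December libraries.

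The same month comparison in Jeryak milk used 6 other libraries and passed 40.4% of the 413 entries, which were 29.1% of bta entries, 43.7% of entries of other species and 66.7% of predicted candidates. As given above, December Jeryak libraries were far deeper than June Jeryak libraries. The part of depth in the Jeryak calls and in the difference between yak and Jeryak was not tested. The 413 entries were chosen on yak values, so entries that reached the minimum in Jeryak milk alone do not enter the Jeryak calls. The same choice favours a difference between yak and Jeryak for entries that are high in 1 yak month alone. With the minimum set over all 12 libraries 620 entries were tested. Of the 113 entries higher in June yak milk, 82 were higher in June Jeryak milk, which is 72.6% of the yak calls and 77.4% of the Jeryak calls among the 413. Of the 73 lower in yak, 30 were lower in Jeryak (41.1% of the yak calls and 49.2% of the Jeryak calls), and 2 were higher there. For bta entries the counts were 8 of 19 higher and 21 of 37 lower. In the test of the difference itself, the month difference of yak milk minus that of Jeryak milk, 29 entries passed (7.02%), of which 2 were bta (0.971%), 15 of other species (11.1%) and 12 predicted candidates (16.7%), and the value was negative for 19 and positive for 10. That count rested on single libraries, as it was 16 without June yak 1, 14 without December yak 2 and 15 without December yak 3.

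The 2 bta entries were bta-miR-6524_R+1 and bta-miR-12023_1ss17GA. bta-miR-6524_R+1 was listed at 0 in December yak milk but not in Jeryak milk, where it had norm values of 133, 152 and 188 in June and 115, 112 and 119.6 in December Jeryak milk (difference of log2 fold changes 3.82, standard error 0.82, adjusted p = 0.016). bta-miR-12023_1ss17GA, with 50.3, 76.8 and 85.7 in December yak milk, had 0, 0 and 0 in June and 0, 0 and 3.77 in December Jeryak milk (difference -5.38, adjusted p = 0.0056). Of the 4 groups, December yak milk had the high values. ssc-miR-1285_L-1R+1 had the same order, with 327, 2549.5 and 634 in June and 741, 494 and 1833 in December Jeryak milk (difference -4.62, adjusted p = 0.010). mmu-miR-5100_L+2R-1 was lower in June in yak and higher in June in Jeryak. It had 26.4, 21.4 and 24.1 in June and 231, 150.4 and 275 in December yak milk (log2 fold change -3.1, standard error 0.77, adjusted p = 0.0050), and 14.8, 77.9 and 16 in June and 3.28, 0.381 and 2.96 in December Jeryak milk (log2 fold change 3.27, adjusted p = 0.0047).

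The Jeryak values of 4 further entries are given for comparison with the yak values above. bta-miR-146b had 90.6, 65.3 and 192 in June and 135, 322 and 148 in December Jeryak milk (log2 fold change -0.83, adjusted p = 0.21), and its difference from yak missed the threshold (-2.17, adjusted p = 0.10). bta-miR-182_R-2 had 506, 480.0 and 632 in June and 341, 114 and 301 in December Jeryak milk (1.23, adjusted p = 0.048, difference 1.33 with an adjusted p of 0.25). It was the only 1 of the 3 members of the miR-183 cluster to pass in Jeryak milk. bta-miR-186 had 19045, 25102 and 25799 in June and 10548, 8094 and 8836 in December Jeryak milk (1.34, adjusted p = 0.0016, difference -0.07 with an adjusted p of 0.93). Lower in June in Jeryak but not called in yak was bta-miR-21-5p_R-2, which had 52445, 39563 and 26514 in June and 94838, 267446 and 49239 in December Jeryak milk (-1.50, adjusted p = 0.043), and the difference between yak and Jeryak missed the threshold (2.54, adjusted p = 0.080).

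**Figure D5:**
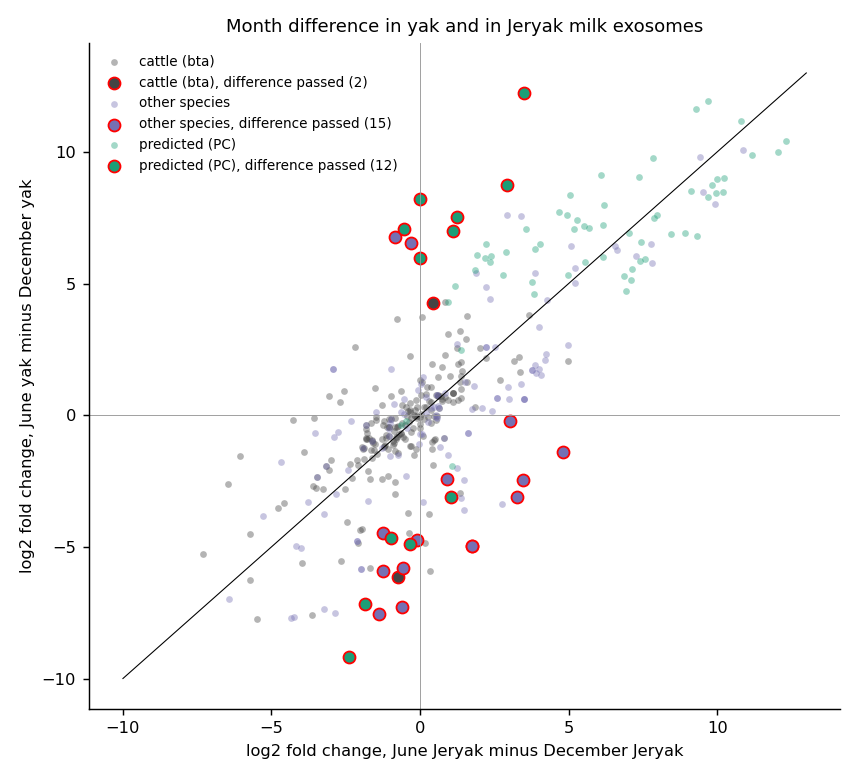
Log2 fold change of June over December in yak milk (y axis) against that in Jeryak milk (x axis) for the 413 tested entries, with a line where both are equal. Red rings mark the 29 entries whose month difference differed between yak and Jeryak, of which 19 lie below the line and 10 above it.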

How the data were processed

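Small RNA of milk exosomes was sequenced by the authors on an Illumina instrument from TruSeq libraries, 3 for each of June yak, December yak, June Jeryak and December Jeryak milk. With ACGT101-miR the authors removed adapters, low-complexity reads, mRNA, RFam and repeats, and matched sequences of 18 to 26 nt to miRBase 22.0, cattle first and then other species, allowing 1 mismatch and varying ends. The rest was folded on a genome (build not given in the sources used here) into predicted candidates. The deposited signal values are norm values, copy numbers multiplied by 1 correction factor per library that was derived from sequences common to all libraries, not scaled to a fixed total. Only 76.9 to 80.0% of the values of a yak library were whole copies (within 0.02 copies), so a count test was not run. Fractions of a copy occur, and limits of 3 copies cover counting error only. 1 empty line of the table was left out.

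Entries whose norm value reached 10 in 3 or more of the 6 yak libraries were fitted on log2(norm value + 1) with limma 3.58.1 (R 4.3.3), with a variance trend, 1 mean per group and all 12 libraries, and p-values were adjusted by Benjamini and Hochberg over the 413 entries. The contrasts were June minus December yak, June minus December Jeryak, and their difference. Shares were compared by exact permutation tests. Named were the 6 most abundant entries, in each direction up to 10 bta, 5 other-species and 4 predicted entries with the smallest p among those without overlap, up to 3 members of each list, the miRNAs of the study's discussion, up to 4 entries in each direction of the difference between yak and Jeryak, and entries sharing at least 15 bases with these. Entries named outside this rule are marked as such, apart from listed calls given to account for a count. The members, lists and rules were chosen with earlier results of these data known. Alternatives were another pseudocount (10), no minimum, a minimum of 100 or over all 12 libraries, scaling to equal totals, group weights, no variance trend, a replicate block, yak libraries alone, each yak library left out, and the criteria of the study (unadjusted p under 0.05, absolute log2 fold change of at least 1). Tables and exact tests were made with scipy 1.17.1, numpy 2.4.6 and pandas 2.3.3 in Python 3.11.15, and the fit was tested on simulated data.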

Additional observations from a re-analysis of the deposited data

Results flagged for a closer look

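Among the entries named, 16 had a month difference in yak milk that differed from that in Jeryak milk by the test of the difference itself (difference of the 2 log2 fold changes, limma, adjusted over the 413 entries). The 413 were chosen on yak values, and some of the 16 were members through 1 yak month alone, such as PC-3p-9570_769 and bta-miR-12023_1ss17GA. For these the choice itself favours a difference from Jeryak, so their p-values do not support one. With the minimum set over all 12 libraries 34 entries passed this test. The difference was negative, with June lower relative to December in yak than in Jeryak, for ggo-mir-4488-p5_1ss18TA (-6.67, adjusted p = 0.0015), mmu-miR-5100_L+2R-1 (-6.37, 0.0045), bta-miR-12023_1ss17GA (-5.38, 0.0056), ssc-miR-1285_L-1R+1 (-4.62, 0.010) and ssc-mir-4332-p3_1ss18TA (-3.22, 0.028). The predicted candidates with a negative value were PC-3p-9644_763 (-6.79, 0.016), PC-5p-14546_484 (-5.31, 0.046), PC-3p-67666_76 (-4.54, 0.0045), PC-5p-681_10485 (-4.16, 0.0038) and PC-5p-174040_20 (-3.65, 0.028). For all 10 of these the 3 December yak libraries held the highest values of the 4 groups.

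The difference was positive for PC-5p-384_17873 (8.76, adjusted p = 0.026), PC-3p-9570_769 (8.21, 0.0038), mmu-mir-6236-p5_1ss15CG (7.61, 0.0019), PC-3p-43357_134 (7.6, 0.0038), PC-3p-71515_71 (5.99, 0.0095) and bta-miR-6524_R+1 (3.82, 0.016). PC-3p-9570_769 had norm values of 1339.8, 52.5 and 359.6 in June yak milk and was listed at 0 in every other group. mmu-mir-6236-p5_1ss15CG had 196, 66.2 and 272 in June and 1.82, 0 and 0 in December yak milk, and 0, 0 and 0 and 0, 0.825 and 2.16 in June and December Jeryak milk.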

How the results depend on the processing

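The 113 higher and 73 lower entries stayed within 1.5 times under most settings, with 101 to 110 higher and 52 to 70 lower when 1 yak library was left out. With a minimum norm value of 100 the counts were 46 higher and 36 lower, of 205 entries tested. The criteria of the study gave 21 higher and 41 lower of 1109 entries, where 71 of the 1109 had an unadjusted p under 0.05 and 0 passed after adjustment. The count for the difference between yak and Jeryak, 29, was 46 with a pseudocount of 10, 10 with no minimum, 8 with a minimum of 100, and 14 to 27 when 1 yak library was left out. Scaling to equal totals moved the median log2 fold change of all entries to -0.17, against 0.06, and that of bta entries to -0.63, against -0.38, with 107 higher and 89 lower, and equal bta totals gave 107 and 81. No named entry that had passed changed sign under any limma setting, while 9 that had not passed did, among them miR-148a and miR-30a-5p with libraries scaled to equal totals and let-7a-5p without June yak 3. Of the 186 calls 140 were kept under every limma setting but the minimum of 100, with the criteria of the study not counted here, which were 29 of 56 bta entries, 46 of 61 of other species and 65 of 69 predicted candidates. Of 81 named calls 19 were lost under at least 1 limma setting. Deviations from the group means were hardly correlated between June and December yak libraries of the same replicate number (0.08, -0.09 and 0.10). With 3 libraries a group this cannot settle whether such libraries came from 1 animal. With a replicate block the counts were 110 higher and 70 lower, and 23 for the difference between yak and Jeryak. With 3 libraries a group, no exact test of a share can go below 0.10.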
